A study of Mus musculus with 4 samples.

Results

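Plvap capillary endothelial cells of the aged mouse kidney were selected from 4 single-cell libraries by the counts of 8 genes in each cell barcode, and their RNA was compared between BPTES-treated and vehicle-treated mice. A barcode belonged to the gate when Pecam1, Cdh5 and Emcn together had at least 3 UMIs (unique molecular identifiers, one per captured RNA molecule), Plvap had at least 2, Ehd3 and the leukocyte gene Ptprc had none, and the proximal tubule genes Lrp2 and Slc34a1 together had at most 3. The gate held 1162 cells, 2.30% of the 50605 barcodes that had at least 500 UMIs, at least 300 genes and at most 50% mitochondrial UMIs. Levels of the 8 genes chose the cells, so their values below are a description and no test was made on them. BPTES inhibits the breakdown of glutamine to glutamate, and was given to 19-month-old male C57BL/6 mice for 1 month, with its solvent DMSO as the control. Each treatment has 2 libraries, each made from sorted CD45-negative and CD45-positive kidney cells remixed in a fixed proportion. All groups therefore share age, sex, strain, enzymatic digestion and sorting, and no genetic allele distinguishes them. Nothing in the labels says that the 2 libraries of a treatment come from separate animals, so p-values measure the spread between libraries, which may be technical.

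Plvap encodes the protein of the diaphragms that span endothelial fenestrae, caveolae and transendothelial channels. In the kidney it marks peritubular capillaries and ascending vasa recta, which take back fluid and solutes that the tubules reabsorb. Glomerular capillaries have fenestrae without diaphragms in the adult and express Ehd3, while descending vasa recta have a continuous endothelium that carries the water channel Aqp1 and the urea transporter Slc14a1. Esm1, or endocan, is a secreted proteoglycan of capillaries exposed to VEGF.

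The libraries held 249881074 to 297947661 UMIs in all and gave 11686 to 13130 kept barcodes, and 30.9 to 34.2% of the deposited barcodes were left out for mitochondrial UMIs over 50%. The gate held 290 cells in BPTES replicate 1, 186 in BPTES replicate 2, 271 in DMSO replicate 1 and 415 in DMSO replicate 2, with 2985652, 1760039, 2742010 and 4805365 UMIs in sum. Gate cells had medians of 9745, 9114, 8814 and 10097 UMIs in the same order, and mitochondrial medians of 1.71 to 1.98% of UMIs. No barcode of the gate was shared between libraries, whereas pairs of libraries shared 36 to 54 kept barcodes. A doublet caller marked 5, 1, 6 and 5 of the gate cells.

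The gate required Plvap and the endothelial genes, so their levels describe the rule. Plvap was at 1854 and 2311 CPM (UMIs per 1000000 UMIs of the class in that library) in the BPTES libraries, against 2510 and 1995 in the DMSO libraries, and single cells held 2 to 118 Plvap UMIs. Pecam1 was at 1187 to 1280 CPM and Emcn at 1719 to 2305. Esm1, the only one of the 4 defining markers that the gate did not use, was present in every library, at a lower average level than in the Ehd3-positive cells the gate left out. At the edge of the gate, 23, 15, 17 and 39 cells per library had exactly 2 Plvap UMIs, while 31, 17, 24 and 43 cells that met all other criteria had 1. The absence of Ehd3 set the gate far more: 2196 cells met all other criteria but had at least 1 Ehd3 UMI, and 170, 108, 156 and 214 of them per library had exactly 1. Those Ehd3-positive cells had higher median depths, 10945 to 13964 UMIs, than the gate. Of all 3996 endothelial cells defined without Plvap and Ehd3, the gate held 29.1%.

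Levels in the gate and in the Ehd3-positive cells that also had Plvap differed in both directions, as a description of cells split by these genes. Plvap averaged 2167 CPM over the 4 libraries of the gate and 3461 in the Ehd3-positive cells. Esm1 averaged 587 and 871, Emcn 2063 and 2755, and Igfbp5, a secreted binder of insulin-like growth factors in cortical capillaries, 1832 and 3309. In the other direction, Aqp1 averaged 1063 CPM in the gate and 214 in the Ehd3-positive cells. Slc14a1 averaged 94.7 and 24.9, the arterial transcription factor Sox17 434 and 159, and the tight junction gene Cldn5 231 and 48.2. Of 6 glomerular markers, Ehd3 and Gata5 were at 0 in all 4 libraries of the gate, the former by rule. The other 4 (Cyp26b1, Pi16, Tspan7 and Sost) were detected there. Glomerular markers summed to 369 and 335 CPM under BPTES and 500 and 315 under DMSO, so their RNA was not absent from the gate.

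**Figure D1:**
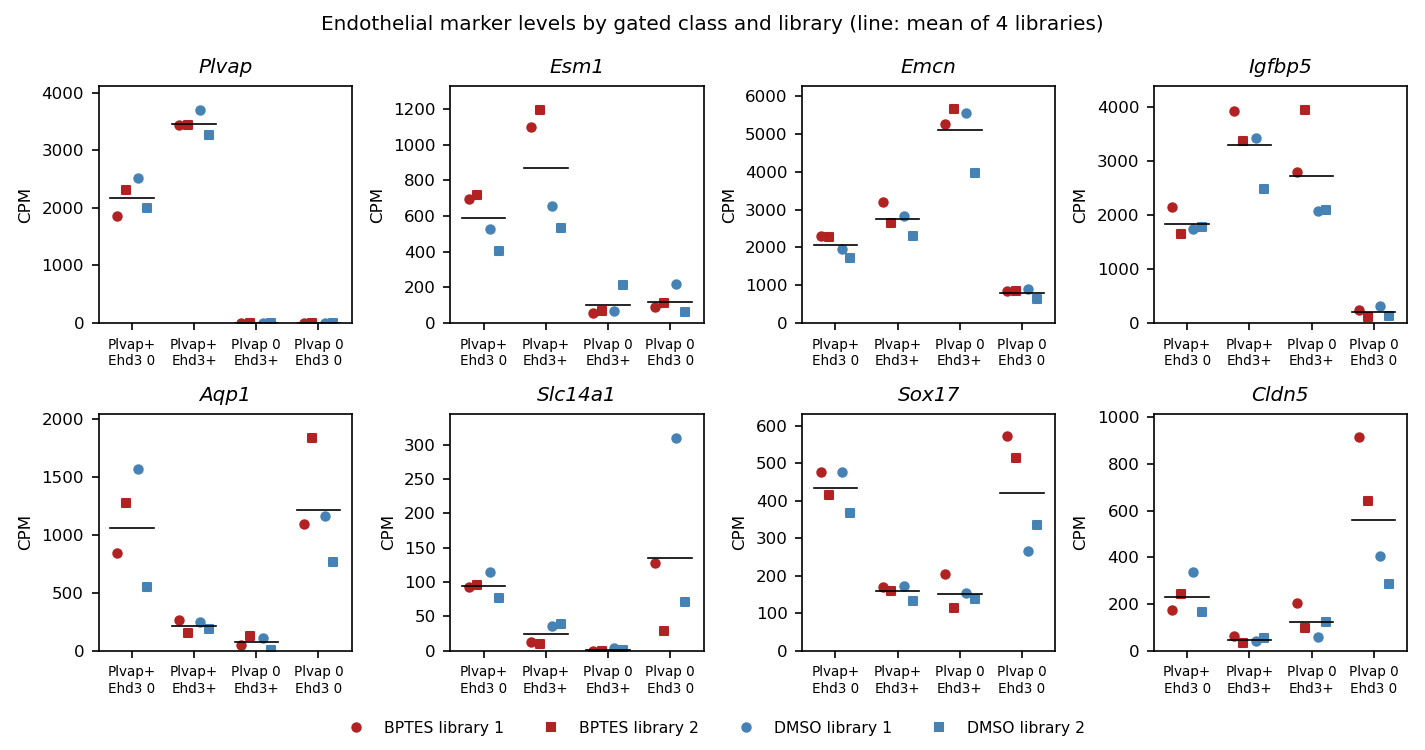
CPM (vertical axes) of 8 endothelial genes in 4 gated classes, split by Plvap and Ehd3, with 1 point per library and a line at the mean of the 4 libraries. The gate (Plvap+ Ehd3 0) is lower than the Ehd3-positive cells for Plvap (means 2167 and 3461) and higher for Aqp1 (means 1063 and 214).

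At least 2 Aqp1 UMIs were found in 31, 22, 39 and 33 cells per library, or 10.7, 11.8, 14.4 and 7.95% of the gate, and none in 251, 158, 225 and 371. As a description of cells picked by Aqp1, the cells with at least 2 Aqp1 UMIs averaged 574 CPM of Plvap and 119 of Igfbp5, against 2596 and 2250 in cells without Aqp1. Slc14a1 averaged 499 and 7.18 in those groups, the actin-severing Scin 1183 and 37.1, the prostaglandin-degrading Hpgd 777 and 4.89, and the endothelin receptor Ednrb 18.3 and 824. In DMSO replicate 1, Igfbp5 reached 455 in the Aqp1-bearing cells, against 0 to 17.2 in the other 3 libraries. Summed levels of 5 descending vasa recta markers in the gate were 1383 and 1914 CPM under BPTES and 2238 and 969 under DMSO, so the groups overlapped and the lowest and highest libraries were both DMSO.

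Markers of several other cell types were detected in the gate, and some sums differed between libraries. Fibroblast markers (Pdgfra, Col1a1, Col1a2, Col3a1, Dcn and Lum) summed to 127 and 1.70 CPM in the BPTES libraries, against 325 and 1320 in the DMSO libraries, all 6 genes being detected. The DMSO libraries were higher, and DMSO replicate 2 stood above all others. Pericyte and smooth muscle markers summed to 78.7 and 81.2 under BPTES and 63.5 and 175 under DMSO. Cells with at least 5 UMIs from 1 of 10 marker lists of other types, called mixed cells here, numbered 12, 5, 9 and 31, or 57 of 1162 (4.91%), with 35 by pericyte and smooth muscle genes and 31 by fibroblast genes. Flt4, Lyz2 and Synpo did not count toward these lists, and the proximal tubule and B and plasma cell lists were not used. Without these cells the fibroblast sums were 1.08, 1.79, 0.800 and 9.37 and the pericyte sums 4.68 to 8.59. The cells were removed by the same genes, so these lower sums follow from the rule. Macrophage markers, Ptprc at 0 by rule, summed to 49.6 and 51.1 under BPTES and 66.0 and 86.4 under DMSO, 10 proximal tubule markers to 608 to 686, and 4 thick ascending limb markers to 40.2, 165, 39.0 and 19.1. B and plasma cell markers summed to 669 and 919 under BPTES and 152 and 148 under DMSO. Because the mixed cells were concentrated in 1 control library, the genes were tested both in all gated cells and with mixed cells left out, an alternative chosen after the fibroblast RNA was seen.

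The share of the gate among endothelial cells showed no difference between treatments larger than the spread of the libraries. It was 28.2% (95% Clopper-Pearson interval 25.5 to 31.1) and 28.9% (25.4 to 32.6) in the BPTES libraries, against 28.6% (25.8 to 31.6) and 30.1% (27.7 to 32.6) in the DMSO libraries. These ranges overlapped, and the means were 28.5% ± 0.475 (SD, n = 2) and 29.4% ± 1.08 (SD, n = 2), a difference of -0.831 percentage points with an exact two-sided permutation p of 0.667. Among barcodes without Ptprc UMIs the share was 3.80% (3.38 to 4.26) and 2.80% (2.42 to 3.23) under BPTES and 3.71% (3.28 to 4.16) and 5.56% (5.05 to 6.10) under DMSO, with an exact permutation p of 0.667. BPTES replicate 1 lay above DMSO replicate 1, and DMSO replicate 2 was the highest. With 2 libraries a group the smallest exact p is 0.333, and the intervals cover counting error only. Thinning every cell to 2000 UMIs, which left out 8 to 27 shallower cells of the gate per library, raised the gate to 502, 328, 487 and 703 cells and to 51.0% and 54.5% of endothelial cells on average under BPTES and DMSO, also with an exact permutation p of 0.667.

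Between treatments, 38 of 11544 tested genes (0.329%) passed an adjusted p of 0.05 in all gated cells, in edgeR's quasi-likelihood test on summed UMIs with Benjamini-Hochberg adjustment. Of these, 9 (0.0780%) were higher under BPTES and 29 (0.251%) lower. Leaving out the mixed cells, 39 of 11060 genes (0.353%) passed, 15 (0.136%) higher and 24 (0.217%) lower. The 2 sets shared 16 genes, and 11 of the 38 were no longer tested once the mixed cells had gone. For background, 2261 genes (19.6%) were higher in both BPTES libraries than in both DMSO libraries and 2533 (21.9%) lower, and with mixed cells left out 2027 (18.3%) and 2079 (18.8%). An unadjusted p under 0.05 was reached by 1080 of 11544 genes in all gated cells and by 906 of 11060 with mixed cells left out. The whole-gate calls needed both BPTES libraries: without BPTES replicate 2 none passed in edgeR, while 816 genes had an unadjusted p below 0.05, and without BPTES replicate 1 it called 5, of which 2 were among the 38. Most of the 38 were still called without DMSO replicate 1, but most were not without DMSO replicate 2, the library with the most mixed cells. With a replicate block edgeR called 24 genes, of which 13 were among the 38. DESeq2 called 99 genes on the full set, including 34 of the 38. With the Ehd3 criterion dropped, edgeR called 1 gene, and none of the 38 passed although all were tested. With Lrp2 and Slc34a1 at 0 it called 4 genes, of which 3 were among the 38. In the set free of mixed cells, DESeq2 called 24 genes, of which 13 were among the 39. With the Ehd3 criterion dropped edgeR called 81 there, of which 16 were among the 39. Leaving out 1 library also changed which genes passed in that set, and most of the 39 were no longer called without DMSO replicate 2. Levels in the gene comparisons are scaled CPM, that is CPM after TMM scaling with the 8 gate genes and an added tdTomato sequence left out.

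**Figure D2:**
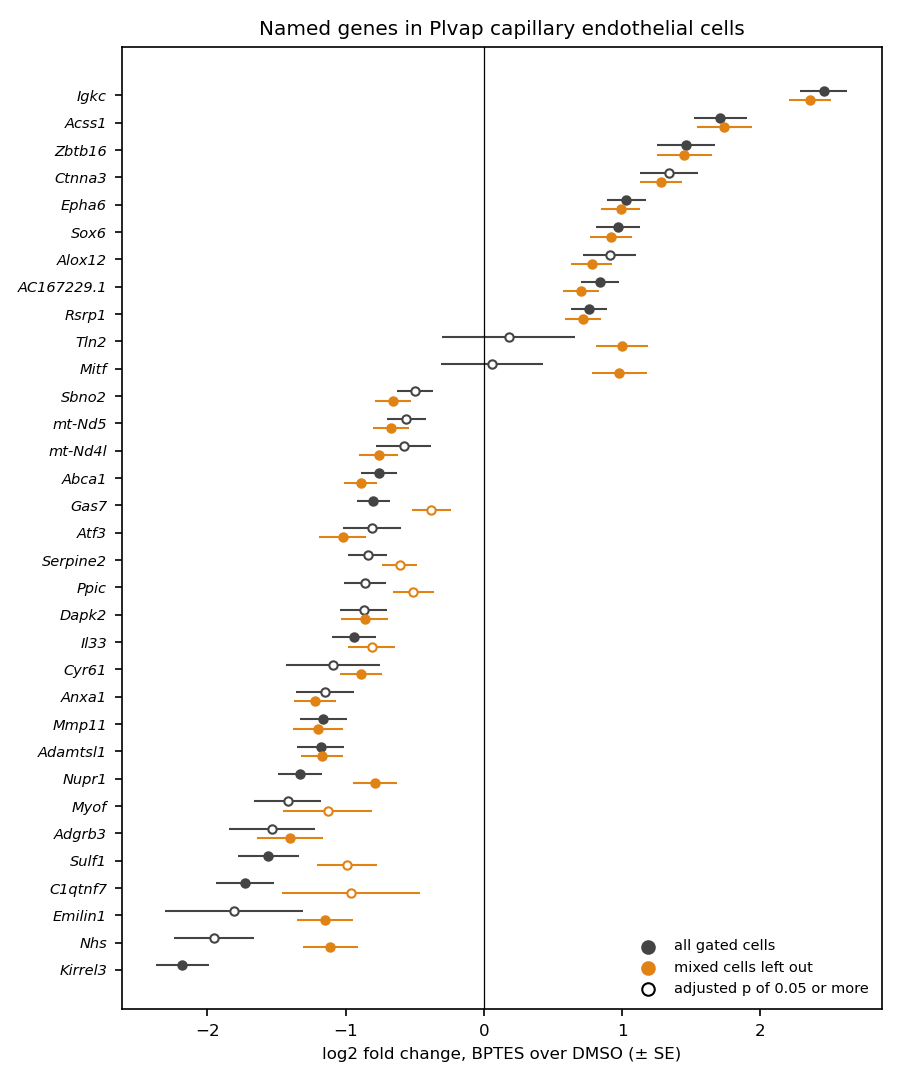
Log2 fold change of BPTES over DMSO (horizontal axis, bars ± SE, 2 libraries each) for genes named by a fixed rule of size and level, in all gated cells (grey) and with mixed cells left out (orange), filled where the adjusted p was under 0.05. Acss1 lies at 1.71 and 1.74 in the 2 fits, whereas Kirrel3, at -2.18 in all gated cells, was not tested without the mixed cells.

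Among the called genes with an average log2 CPM not under 5, the largest rise in all gated cells apart from immunoglobulin RNA was that of Acss1, the mitochondrial enzyme that activates acetate to acetyl-CoA. Acss1 was at 51.7 and 58.6 scaled CPM in the BPTES libraries, against 15.4 and 17.8 in the DMSO libraries. Both BPTES libraries were above both DMSO libraries, and Acss1 rose by 1.71 ± 0.19 (log2 fold change ± SE, edgeR adjusted p = 0.00578), or 3.28-fold. A UMI of Acss1 was found in 28.3 and 27.4% of BPTES gate cells, against 10.7 and 13.5% of DMSO gate cells. Without the mixed cells the change was 1.74 ± 0.20 (adjusted p = 9.06e-04), and it stayed between 1.64 and 1.86 and past the threshold in every alternative run on those cells that gave an adjusted p. In all gated cells the size ranged from 1.63 to 1.84, but Acss1 did not pass without either BPTES library. Like each of the 38 genes, it also did not pass in all gated cells with the Ehd3 criterion dropped. Tubule cells (at least 20 UMIs of Lrp2 and Slc34a1) held more Acss1, 183 and 204 CPM under BPTES and 141 and 129 under DMSO, and their part in the gate's values was not tested. In the Ehd3-positive Plvap cells of the same libraries, Acss1 also rose with mixed cells left out, by 1.61 ± 0.18 (adjusted p = 0.00861).

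Zbtb16, a zinc finger transcription factor induced by glucocorticoids in several tissues, was at 49.7 and 60.4 scaled CPM under BPTES and 16.5 and 22.6 under DMSO, without overlap, and rose by 1.46 ± 0.21 (adjusted p = 0.0214). It also rose with mixed cells left out, by 1.45 ± 0.20 (adjusted p = 0.00394), and in all gated cells its adjusted p was 0.175 and 0.310 without either BPTES library. Sox6, a transcription factor of the SoxD group, was at 267 and 222 against 142 and 109, and rose by 0.97 ± 0.16 (adjusted p = 0.0480). The ephrin receptor gene Epha6 was at 288 and 354 against 174 and 141, and rose by 1.03 ± 0.14 (adjusted p = 0.0217). All BPTES values of both genes lay above the DMSO values, and both passed with mixed cells left out, Sox6 at 0.92 (adjusted p = 0.0193) and Epha6 at 0.99 (adjusted p = 0.00445). Without DMSO replicate 2, Sox6 had an adjusted p of 0.117 in all gated cells and 0.0697 with mixed cells left out. Rsrp1 (0.76, adjusted p = 0.0480) and the unnamed locus AC167229.1 (0.84, adjusted p = 0.0469) completed the named genes that rose.

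Among the named genes that rose, those that passed only with mixed cells left out were Ctnna3, an alpha-catenin, Alox12, a 12-lipoxygenase, the cytoskeletal linker Tln2 and the transcription factor Mitf. Ctnna3 was at 168 and 149 scaled CPM under BPTES and 74.5 and 57.9 under DMSO in those cells, and rose by 1.28 ± 0.15 (adjusted p = 9.27e-04), with 1.34 and an adjusted p of 0.0667 in all gated cells. Alox12 was at 130 and 118 against 83.7 and 62.9 and rose by 0.78 (adjusted p = 0.0431), with 0.91 and an adjusted p of 0.156 in all gated cells. Tln2 and Mitf rose by 1.00 (adjusted p = 0.0368) and 0.98 (adjusted p = 0.0493). These last genes depended on the mixed cells, since in all gated cells DMSO replicate 2 had the highest level of both, 66.2 for Tln2 and 63.9 for Mitf, and the changes were 0.18 and 0.06 (adjusted p = 0.942 and 0.976).

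**Figure D3:**
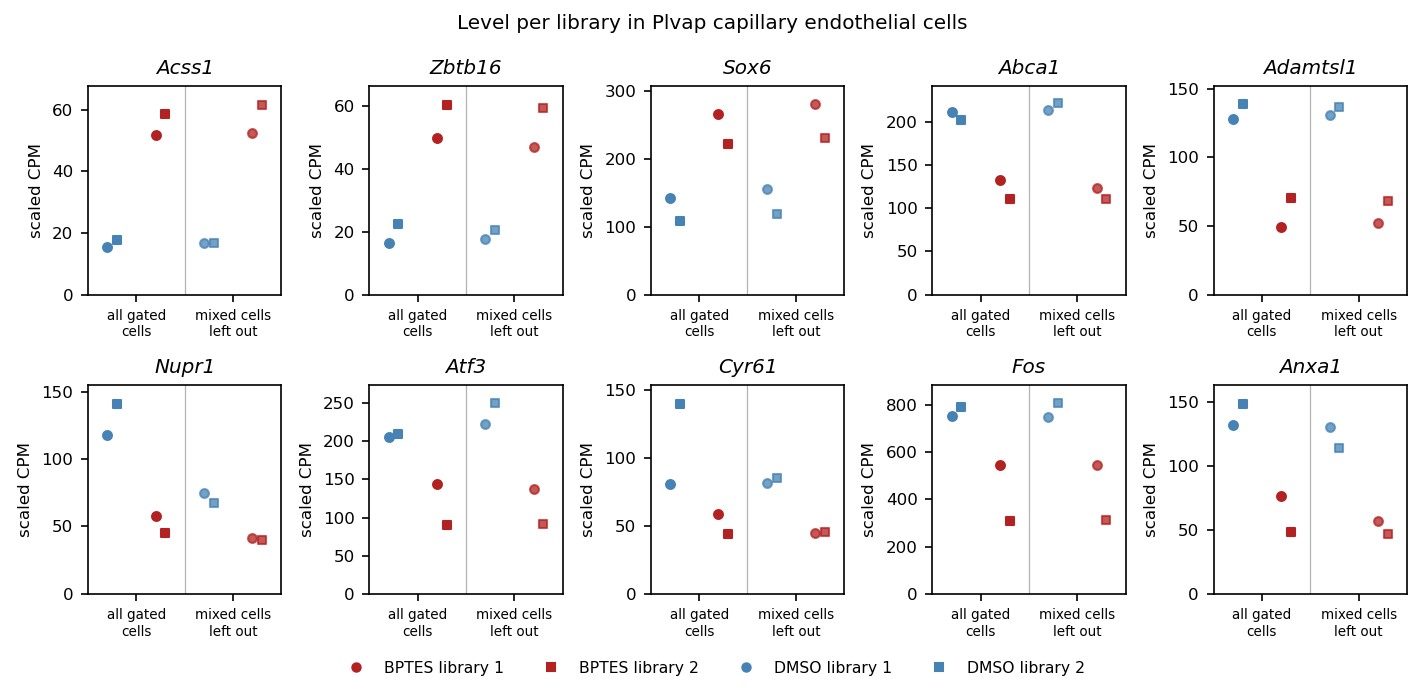
Scaled CPM (vertical axes, from 0) of 10 genes in each library, in all gated cells (left of each panel) and with mixed cells left out (right). Acss1 and Zbtb16 are higher under BPTES on both sides, with values of 51.7 and 58.6 against 15.4 and 17.8 for Acss1, while Nupr1 in DMSO replicate 2 drops from 141 to 67.2 once mixed cells are left out.

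Genes lower under BPTES included Abca1, which exports cholesterol to lipid-poor apolipoprotein and is a target of the liver X receptors. Abca1 was at 132 and 110 scaled CPM in the BPTES libraries, against 211 and 202 in the DMSO libraries. The groups did not overlap, and Abca1 fell by 0.76 ± 0.13 on the log2 scale (adjusted p = 0.0469), the DMSO level being 1.70-fold the BPTES level. Without the mixed cells it was at 123 and 111 against 213 and 222 and fell by 0.89 ± 0.12 (adjusted p = 0.00395), and it passed in all the alternatives run on those cells (-1.06 to -0.82). In all gated cells the adjusted p was 0.204 and 0.365 without either BPTES library, 0.101 without DMSO replicate 2 and 0.0738 with a replicate block. Abca1 UMIs were found in 46.6 and 43.5% of BPTES gate cells, against 59.8 and 68.0% of DMSO gate cells. In tubule cells, at higher depth, the shares with Abca1 UMIs were 20.6, 19.1, 32.8 and 27.9%, below the gate's. Abca1 was also lower under BPTES in tubule cells, at no more than 15.2 CPM in either library against 34.7 and 25.6, and in leukocytes, at 55.0 and 45.5 against 81.8 and 114, and the part of these cells in the gate's values was not tested. For 3 of the genes that fell, the 250 bases before the start of transcription (RefSeq, GRCm38.p6, read in the direction of the gene) show the core promoters in question, with matches to 4 motifs in capitals.
Abca1 (chr4:53159896-53160145, minus strand): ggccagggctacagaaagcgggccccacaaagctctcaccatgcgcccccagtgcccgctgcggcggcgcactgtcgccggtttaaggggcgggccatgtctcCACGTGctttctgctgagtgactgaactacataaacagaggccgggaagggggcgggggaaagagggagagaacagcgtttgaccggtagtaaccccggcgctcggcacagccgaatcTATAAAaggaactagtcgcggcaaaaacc
Sele (chr1:164047984-164048233, plus strand): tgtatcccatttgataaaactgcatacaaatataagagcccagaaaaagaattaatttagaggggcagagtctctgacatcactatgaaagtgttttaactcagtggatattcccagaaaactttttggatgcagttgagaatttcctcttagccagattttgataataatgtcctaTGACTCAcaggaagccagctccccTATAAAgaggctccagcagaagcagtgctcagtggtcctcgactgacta
Cyr61 (chr3:145649986-145650235, minus strand): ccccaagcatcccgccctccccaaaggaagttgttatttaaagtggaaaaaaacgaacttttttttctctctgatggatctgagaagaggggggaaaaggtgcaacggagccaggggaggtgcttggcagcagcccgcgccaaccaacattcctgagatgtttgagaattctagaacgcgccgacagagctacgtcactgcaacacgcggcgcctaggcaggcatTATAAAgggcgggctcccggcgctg
The capitals are an E-box (CACGTG) and a TATA box (TATAAA) in Abca1, an AP-1 site (TGANTCA) and a TATA box in Sele, and a TATA box in Cyr61, listed in RefSeq as Ccn1. Both strands were searched, also for a cAMP response element (TGACGTCA), which was in none of the 3. The Atf3 window held none of the 4 motifs. Of 32851 windows of the same length, 6.75% held the AP-1 letters, 6.02% the E-box, 12.4% the TATA box and 1.55% the cAMP response element. The matches describe letters, not bound sites.

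Of 25 genes of cholesterol efflux and synthesis, 24 were tested and Abca1 alone passed, with mixed cells in or out, against 0.329% and 0.353% of all genes tested. Scarb1, the receptor that takes up HDL cholesterol, was at 132, 150, 198 and 252 scaled CPM (BPTES replicates, then DMSO replicates) with mixed cells left out, and its -0.69 ± 0.14 missed the threshold (adjusted p = 0.0502), with -0.51 (adjusted p = 0.151) in all gated cells. The liver X receptor targets Mylip and Lpcat3 had -0.42 and -0.10 in those cells (adjusted p = 0.318 and 0.945), and the receptor gene Nr1h2 had 0.11 (adjusted p = 0.934). Of the 24 genes, 16 had a positive and 8 a negative change there, 8 being apart and higher and 4 apart and lower (against 18.3% and 18.8% of all genes tested). The median over the 24 genes was 0.12 with mixed cells left out and -0.11 in all gated cells, against 0.00 over all genes in both fits.

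Some genes fell in all gated cells by a size that depended on the mixed cells. Nupr1, a chromatin-associated stress protein and target of ATF4, went from 57.5 and 44.8 scaled CPM under BPTES against 118 and 141 under DMSO (log2 fold change -1.33, adjusted p = 0.00921) to 41.7 and 39.9 against 74.9 and 67.2 (-0.79, adjusted p = 0.0493). The groups were apart in either set of cells, but the DMSO level of Nupr1 was lower once the mixed cells had gone.

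By contrast, Adamtsl1, a secreted ADAMTS-like matrix protein, and Mmp11, the secreted protease stromelysin-3, had similar sizes in both sets. Adamtsl1 was at 49.4 and 70.1 scaled CPM under BPTES and 128 and 139 under DMSO, and fell by 1.18 ± 0.17 (adjusted p = 0.0229) in all gated cells and by 1.17 ± 0.15 (adjusted p = 0.00164) with mixed cells left out. Mmp11 was at 29.2 and 37.4 against 74.3 and 72.1, and fell by 1.16 (adjusted p = 0.0217) and 1.20 (adjusted p = 0.00756). Neither gene's groups overlapped, and neither gene passed once the Ehd3 criterion was dropped, which held in all gated cells for each of the 38 called genes. In all gated cells both lost the call without either BPTES library, without DMSO replicate 2 and with a replicate block, with adjusted p-values from 0.0531 to 0.255 for Adamtsl1 and from 0.0738 to 0.255 for Mmp11.

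Several of the largest falls in all gated cells were in genes whose levels left with the mixed cells. Tnc, a matrix glycoprotein of fibroblasts and pericytes, was at 5.38 and 1.72 scaled CPM under BPTES and 49.8 and 56.8 under DMSO (-3.74, adjusted p = 0.00329), the metallothionein Mt2 at 4.03 and 3.45 against 24.9 and 36.5 (-3.02, adjusted p = 0.00578), and Kirrel3, an adhesion protein, at 13.8 and 19.0 against 73.2 and 71.9 (-2.18, adjusted p = 0.00329). With 16 and 3 UMIs of Tnc and 12 and 6 of Mt2 under BPTES, these genes entered the test through the DMSO libraries, where they are high. None of these 3 had enough counts to be tested with mixed cells left out. C1qtnf7 had -1.73 (adjusted p = 0.00921) in all gated cells and -0.96 (adjusted p = 0.681) without the mixed cells, the heparan sulfate sulfatase Sulf1 -1.56 (adjusted p = 0.0217) and -0.99 (adjusted p = 0.0719), and Gas7 -0.80 (adjusted p = 0.0315) and -0.38 (adjusted p = 0.387). Among genes just short of the threshold in all gated cells were Ppic and Serpine2 (adjusted p = 0.0517 each) and Myof (adjusted p = 0.0544). The fibroblast sums were 127 and 1.70 CPM under BPTES and 325 and 1320 under DMSO, and the part of fibroblast RNA in these falls was not tested. In all gated cells 5 of the 6 fibroblast markers were tested and all 5 were lower in both BPTES libraries than in both DMSO libraries (against 21.9% of all genes tested), with none past the threshold.

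Anxa1, an anti-inflammatory phospholipid-binding protein, passed only in the gate without mixed cells. There it was at 57.1 and 46.5 scaled CPM under BPTES and 131 and 114 under DMSO, and fell by 1.22 ± 0.15 (adjusted p = 0.00156), with -1.15 and an adjusted p of 0.116 in all gated cells. Sele, the endothelial selectin that slows rolling leukocytes, had 7, 11, 46 and 116 UMIs in the 4 libraries, or 2.52 and 6.64 scaled CPM against 18.4 and 30.7, and fell by 2.59 ± 0.42 (adjusted p = 0.0262). With 7 UMIs in BPTES replicate 1, Sele entered the test through the DMSO libraries, where it is high. DMSO replicate 2 held the most Sele, and without it the adjusted p was 0.0864. In all gated cells Sele had 25, 12, 46 and 120 UMIs in 4, 5, 8 and 29 cells, with a change of -1.45 (adjusted p = 0.116). Most Sele UMIs of BPTES replicate 1 thus left with the mixed cells, while the counts of the DMSO libraries hardly changed. Il33, a nuclear alarmin of endothelium, fell in all gated cells by 0.94 (adjusted p = 0.0480). Without the mixed cells it was at 36.3 and 46.5 scaled CPM under BPTES and 69.3 and 73.5 under DMSO, without overlap, and its -0.81 narrowly missed the threshold (adjusted p = 0.0530).

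Of 21 genes of leukocyte adhesion and recruitment, 15 were tested in each set and 1 fell, Il33 in all gated cells and Sele with mixed cells left out, against 0.251% and 0.217% of all genes tested. As stated above, Sele entered that test through the DMSO libraries, where it is high. None rose, and the medians were -0.40 and -0.41. Vcam1, the ligand of VLA-4 on leukocytes, was at 116 and 171 scaled CPM under BPTES and 243 and 186 under DMSO in all gated cells, without overlap, and its -0.59 ± 0.23 had an adjusted p of 0.526. Icam2 differed little, at 286 and 295 against 282 and 236 (0.17, adjusted p = 0.716), and Cd34 was at 468 and 555 against 671 and 573 (-0.28, adjusted p = 0.539). Selp stood out for 1 library, at 110 scaled CPM in DMSO replicate 2 and 5.85 to 23.6 in the other 3. Of 5 tested macrophage markers, all 5 had lower values under BPTES in all gated cells and 3 were apart (against 21.9% of all genes tested), for example C1qa at 7.39 and 4.02 against 14.6 and 12.6 (-1.17, adjusted p = 0.306), and their part in the adhesion values was not tested.

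Immediate early genes, which respond to stimuli within minutes and include the AP-1 factors, had 2 members that fell with mixed cells left out and none in all gated cells. In the gate without mixed cells, 24 of 28 were tested, 23 had a negative change, 18 were apart and lower (against 18.8% of all genes tested), 13 had an unadjusted p under 0.05 (against 906 of 11060 genes), and the median was -0.67 against 0.00 over all genes. Atf3 and Cyr61 passed (against 0.353% of all genes tested). Atf3, a stress-induced repressor, was at 137 and 91.8 scaled CPM under BPTES and 223 and 250 under DMSO and fell by 1.02 ± 0.17 (adjusted p = 0.0299). Cyr61, a matricellular target of YAP, was at 44.6 and 45.3 against 81.3 and 85.4 and fell by 0.89 ± 0.15 (adjusted p = 0.0193). Both were apart between the groups, but without DMSO replicate 2 the adjusted p was 0.110 for Atf3 and 0.0825 for Cyr61. Tubule cells also had less of both under BPTES, Atf3 at 2.18 and 2.18 CPM against 4.29 and 9.59 and Cyr61 at 47.6 and 44.2 against 64.2 and 98.8. In Ehd3-positive Plvap cells without mixed ones Atf3 had -0.98 (adjusted p = 0.387) and Cyr61 -0.74 (adjusted p = 0.0503), and the part of RNA from other cells in the gate's values was not tested.

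In all gated cells none of 27 tested immediate early genes passed in edgeR, 10 had an unadjusted p under 0.05, 25 had a negative change and the median was -0.56. Atf3 then had -0.81 (adjusted p = 0.310) and Cyr61 -1.09 (adjusted p = 0.472). Fos was at 546 and 310 scaled CPM under BPTES and 752 and 792 under DMSO (-0.84 ± 0.30, adjusted p = 0.545), and Jun at 1470 and 1020 against 1520 and 1700 (-0.36, adjusted p = 0.597). Egr1 (332 and 141 against 426 and 594) and Junb (512 and 279 against 544 and 706) had -1.09 and -0.65 (adjusted p = 0.708 and 0.717). BPTES replicate 2 was the lowest library for Fos, Jun, Egr1 and Junb, and the BPTES libraries differed from each other by more than the DMSO libraries did for all 4.

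None of the heat shock genes, which encode chaperones, passed in edgeR. All 14 were tested, 12 had a positive change in all gated cells, 10 were higher in both BPTES libraries than in both DMSO libraries (against 19.6% of all genes tested), 6 had an unadjusted p under 0.05 (against 1080 of 11544 genes), and the median was 0.26, or 0.21 with mixed cells left out. The cytosolic chaperone Hspa8 was at 607 and 924 scaled CPM under BPTES and 456 and 488 under DMSO (0.69 ± 0.21, adjusted p = 0.376). Its co-chaperone Dnaja1 was at 526 and 733 against 402 and 382 (0.68 ± 0.16, adjusted p = 0.194), and Hsp90ab1 at 1170 and 1570 against 1010 and 1120 (0.36, adjusted p = 0.505). BPTES replicate 2 was the highest library for all 3. Stress-inducible Hspa1a overlapped between the groups, at 349 and 447 against 399 and 392 (0.01, adjusted p = 0.997).

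**Figure D4:**
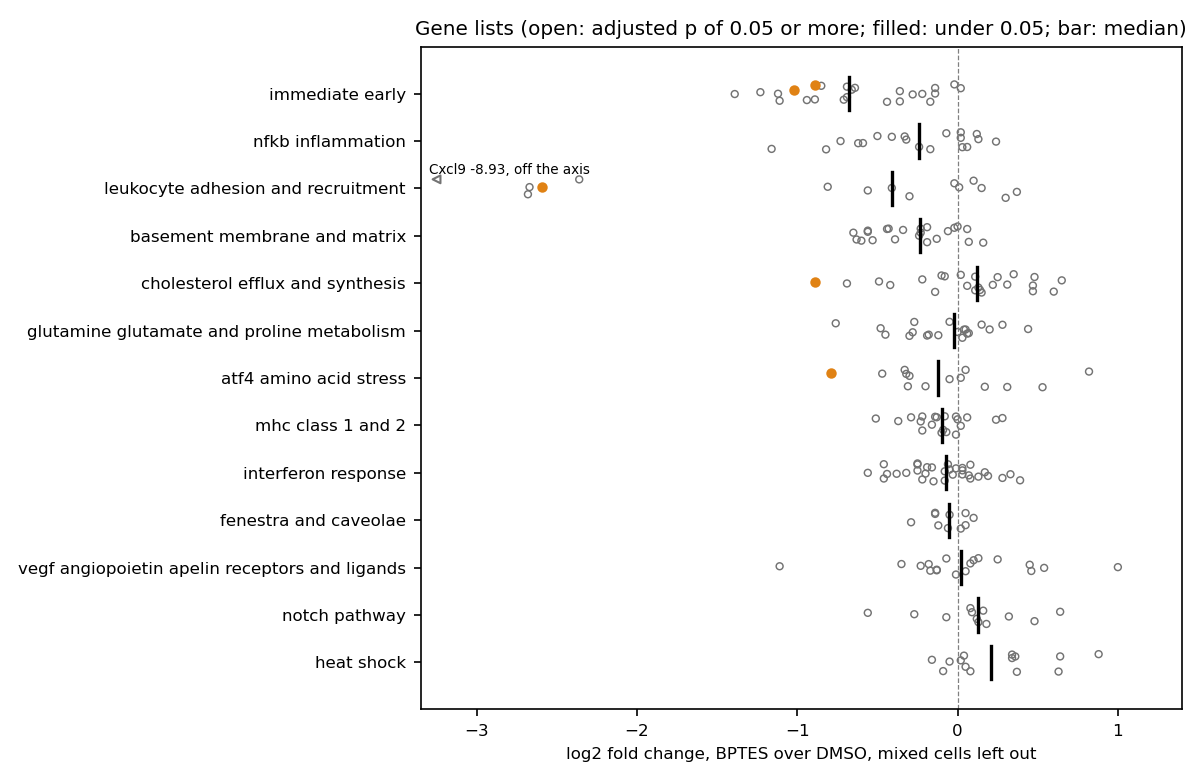
Log2 fold change of BPTES over DMSO with mixed cells left out (horizontal axis) for each tested gene of 13 gene lists, with bars at the medians and filled points at an adjusted p under 0.05. The immediate early genes have a median of -0.67 and the heat shock genes 0.21; Cxcl9, at -8.93, is drawn as an arrow because both BPTES libraries had 0 UMIs.

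Basement membrane and matrix genes had no call in either set of cells. In the gate without mixed cells, 22 of 23 were tested, 12 were apart and lower under BPTES (against 18.8% of all genes tested), 7 had an unadjusted p under 0.05 (against 906 of 11060 genes), and the median was -0.24, against -0.56 in all gated cells. The collagen IV chains, main polymers of the basement membrane, had Col4a1 at 618 and 739 scaled CPM under BPTES and 840 and 1150 under DMSO (-0.56 ± 0.16, adjusted p = 0.253) and Col4a2 at 373 and 461 against 570 and 717 (-0.63 ± 0.14, adjusted p = 0.0902). Sparc, a collagen-binding matricellular protein, was at 1240 and 1310 against 1700 and 1720 (-0.43 ± 0.12, adjusted p = 0.206). All 3 had both BPTES libraries below both DMSO libraries, in all gated cells too. Timp3, a metalloproteinase inhibitor and the most abundant gene of the list, was at 2870 and 2460 against 2520 and 2260 (0.16, adjusted p = 0.847).

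Of 31 genes of glutamine, glutamate and proline metabolism, 22 were tested in all gated cells and none passed in edgeR. An unadjusted p under 0.05 was reached by 3, all lower (against 1080 of 11544 genes). In value 14 were lower and 8 higher, 9 being apart and lower and 4 apart and higher (against 21.9% and 19.6% of all genes tested). The median was -0.14. With mixed cells left out it was -0.03 over 20 genes, 4 being apart and lower and 3 apart and higher (against 18.8% and 18.3%). Glul, which makes glutamine, was at 357 and 286 scaled CPM in the BPTES libraries, against 325 and 288 with DMSO (a log2 change of 0.07, adjusted p = 0.902), and the amino acid carrier Slc38a2 at 342 and 397 against 327 and 306 (0.22, adjusted p = 0.617). The levels of Glul overlapped between the groups. In the ATF4 amino acid stress list, Nupr1 was the 1 gene of 15 tested that fell (against 0.251% of all genes tested), while Atf4 itself was at 116 and 116 against 137 and 106 (-0.06, adjusted p = 0.928) and the hypoxia- and stress-induced Ddit4 had -0.17 (adjusted p = 0.819).

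Genes of capillary identity and growth were likewise without calls. Of 11 genes of fenestrae and caveolae, Plvap was barred from the test and the other 10 were tested, with none past the threshold or under an unadjusted p of 0.05. The most abundant of them, Ehd4, was at 1300 and 1160 scaled CPM under BPTES and 1220 and 905 under DMSO (0.21, adjusted p = 0.720), and Cavin2, a coat protein of caveolae, at 322 and 268 against 274 and 226 (0.25, adjusted p = 0.641). Of 18 VEGF, angiopoietin and apelin genes tested in all gated cells none passed. An unadjusted p under 0.05 was reached by 5, of which 4 were higher and 1 lower (against 1080 of 11544 genes). The groups were apart with BPTES higher for 6 and lower for 1 (against 19.6% and 21.9% of all genes tested), and the median was 0.06. Esm1 was at 698 and 727 against 530 and 406, without overlap, and its 0.61 ± 0.14 had an adjusted p of 0.141 (0.46, adjusted p = 0.137, with mixed cells left out). In the Ehd3-positive Plvap cells of the same libraries Esm1 rose by 0.84 ± 0.10 with mixed cells left out (adjusted p = 0.0110). The VEGF co-receptor Nrp1 was at 1330 and 1120 against 918 and 916 (0.42 ± 0.12, adjusted p = 0.259), and the main VEGF receptor Kdr overlapped, at 933 and 957 against 970 and 625 (0.25, adjusted p = 0.800).

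Notch genes (13 tested, none passed, 2 with an unadjusted p under 0.05) had a median of 0.22, and 0.12 with mixed cells left out. Dll4, the endothelial Notch ligand, was at 150 and 133 scaled CPM under BPTES and 119 and 111 under DMSO (0.30, adjusted p = 0.496). Among 20 MHC genes, all tested, none passed and 2 had an unadjusted p under 0.05. B2m, the light chain of class I molecules, was at 3400 and 3540 against 3640 and 2980, which overlap (0.07, adjusted p = 0.911). All 32 interferon response genes were tested, with none past the threshold and 1 under an unadjusted p of 0.05, and the interferon-induced Rsad2 was at 1290 and 965 against 1440 and 1010 (-0.12, adjusted p = 0.913). In the fatty acid list, Angptl4, an inhibitor of lipoprotein lipase, fell in all gated cells from 23.8 and 22.0 to 4.70 and 2.30 (-2.60, adjusted p = 0.0177). With 14 and 4 UMIs under BPTES it entered the test through the DMSO libraries, where it is high, and with mixed cells left out it had 8, 4, 22 and 16 UMIs and -1.20 (adjusted p = 0.588). Fabp4, a fatty acid carrier of capillaries and the most abundant gene of that list, was at 4390 and 3510 against 3140 and 2890 (0.39 ± 0.14, adjusted p = 0.394).

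The remaining 11 gene lists (NF-kB inflammation, shear stress, junctions, TGF-beta and BMP, endothelial to mesenchymal change, senescence and p53, vasoactive genes, coagulation, cell cycle, endothelial transcription factors, hypoxia and glycolysis) had no member past the threshold in edgeR in either set of cells. Of these 11, the endothelial to mesenchymal list had the lowest median log2 fold change in all gated cells, -0.73 over 12 tested genes, and it had 0.14 with mixed cells left out, where 6 of its genes were abundant enough to be tested. NF-kB genes had a median of -0.23 over 19 tested genes in all gated cells, where 8 were lower and 2 higher under BPTES with no overlap between the groups (against 21.9% and 19.6% of all genes tested), and 3 lower and 1 higher had an unadjusted p below 0.05. With mixed cells left out the median was -0.24 over 19, the counts without overlap were again 8 lower and 2 higher (against 18.8% and 18.3%), and 5 lower and 0 higher had such a p. Their feedback inhibitor Nfkbia had a log2 fold change of 0.25 in all gated cells (336 and 324 against 272 and 284 scaled CPM, adjusted p = 0.506). Among flow-responsive genes, Klf2, a transcription factor induced by laminar shear, was at 948 and 805 under BPTES and 743 and 730 under DMSO scaled CPM (log2 fold change 0.25, adjusted p = 0.560). Cdkn1a, the p53-induced cell cycle inhibitor, overlapped between the groups in all gated cells, at 122 and 113 against 117 and 113 scaled CPM (log2 fold change 0.03, adjusted p = 0.958). With mixed cells left out it was at 116 and 117 against 126 and 124 (-0.11, adjusted p = 0.920).

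The immunoglobulin genes Igkc and Jchain rose in the gate, and both were higher under BPTES in each of the 6 classes of cells examined. They were 2 of 4 tested genes of the B and plasma cell list, against 0.0780% of all genes tested that rose. Igkc, the kappa light chain constant gene of B and plasma cells, was at 419 and 562 scaled CPM under BPTES and 97.7 and 80.7 under DMSO, and rose by 2.46 ± 0.17 (adjusted p = 0.00329), or 5.51-fold. Jchain, which joins IgA and IgM polymers, rose by 2.59 ± 0.31 (adjusted p = 0.0214), from 6.59 and 9.01 to 36.3 and 62.1. Both rose with mixed cells left out, Igkc by 2.36 (adjusted p = 4.82e-06) and Jchain by 2.45 (adjusted p = 0.00156). A UMI of Igkc was found in 96.6 and 97.8% of BPTES gate cells (median depths 9745 and 9114), against 55.7 and 56.6% of DMSO gate cells (8814 and 10097). In tubule cells, which do not make immunoglobulin, the shares were 98.9, 99.5, 69.2 and 71.1% (median depths 17036 to 20972). The gate's shares were below these at a lower depth, while its 418, 555, 97.4 and 80.1 CPM of Igkc were above the 245, 368, 58.4 and 57.6 CPM of tubule cells, and the source of this RNA was not tested. Leukocytes (at least 2 Ptprc UMIs) held 44817 and 60493 CPM of Igkc under BPTES and 5597 and 7829 under DMSO. Stac, an adaptor gene named here after its values were seen, also passed in all gated cells (adjusted p = 0.0195), with 30 and 16 UMIs in the BPTES libraries, against 1 and 2 with DMSO. At 0.366 and 0.419 scaled CPM in the DMSO libraries, it entered the test through the BPTES libraries, where it is high. Stac was not tested with mixed cells left out, and its adjusted p was 0.387, 0.310 and 0.101 without BPTES replicate 1, BPTES replicate 2 or DMSO replicate 2. The other tested genes of the B and plasma cell list did not pass in all gated cells, Igha with 4.20 (adjusted p = 0.355) and Ighm with 0.42 (adjusted p = 0.915).

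**Figure D5:**
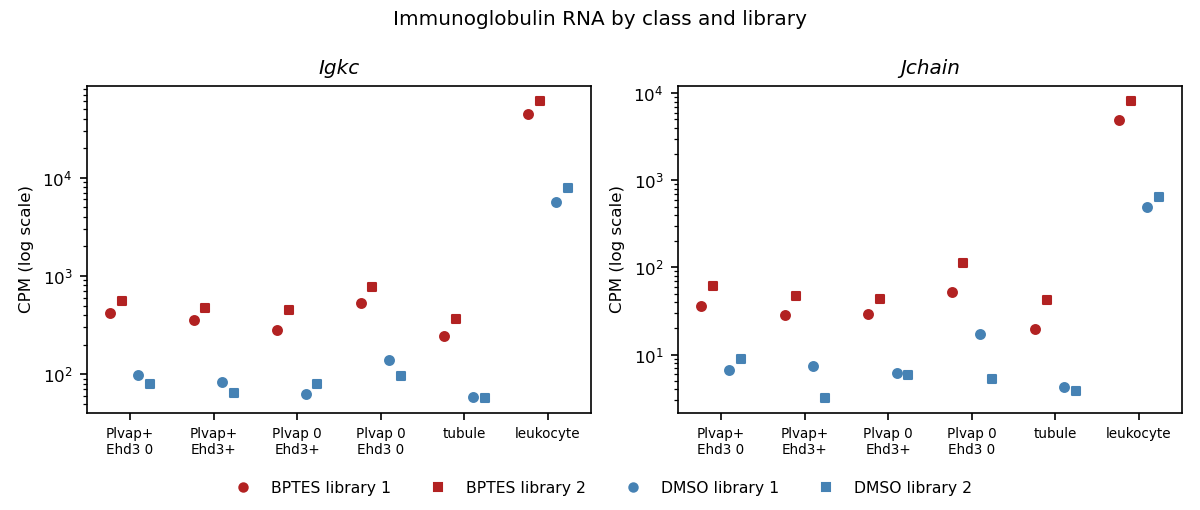
CPM (log axes) of Igkc and Jchain in 6 classes of cells, 1 point per library. The BPTES libraries are above the DMSO libraries in each class, for Igkc at 418 and 555 against 97.4 and 80.1 in the gate and 245 and 368 against 58.4 and 57.6 in tubule cells.

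The mitochondrially encoded mt-Nd5, a complex I subunit, passed only with mixed cells left out. With mixed cells left out it was at 709 and 876 scaled CPM under BPTES and 1270 and 1260 under DMSO and fell by 0.67 (adjusted p = 0.0364), while in all gated cells it had -0.56 (adjusted p = 0.185). Cells with 25 to 50% mitochondrial UMIs numbered 1 and 1 in the BPTES gate and 8 and 11 in the DMSO gate. With a limit of 25%, run on all gated cells only, the change was 0.05 (adjusted p = 0.926).

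Whether the response to BPTES differed from that of other endothelial cells of the same libraries was tested with an interaction of class and treatment, the library being a block. Against 137 glomerular cells (Plvap 0, at least 2 Ehd3 UMIs) 0 of 10631 genes (0%) passed in edgeR, under TMM and under RLE scaling alike, although 357 reached an unadjusted p below 0.05. Once mixed cells were left out of both classes, 11 genes passed there, led by Igfbp3 (5.24, adjusted p = 0.00142), which had 1956 to 4856 UMIs in each library of the gate and 1, 0, 15 and 36 in the glomerular cells. Against 268 cells without Plvap and Ehd3, 6 of 11268 genes (0.0532%) passed, led by smooth muscle Myh11 (-7.07, adjusted p = 0.0122), whose UMIs in the gate were 2, 1, 1 and 8 and in the other class 235, 74, 0 and 9. Myh11 thus entered the test through the BPTES libraries of the other class, where it is high. With mixed cells left out 1 gene passed, the vasoconstrictor Edn1 (1.91, adjusted p = 0.0198), and none of the 6 did, 1 of them no longer being tested. Against the 2196 Ehd3-positive Plvap cells, a comparison added after the data were seen, 5 of 12824 genes (0.0390%) passed. Among them Nhs, an actin regulator, had an interaction of -1.35 (adjusted p = 0.0221), at 24.7, 26.9, 72.1 and 122 CPM in the gate and 72.2, 94.7, 93.7 and 146 in the Ehd3-positive cells. The Nhs interaction without mixed cells was -0.86 (adjusted p = 0.205). Plcl1, a phospholipase C-like protein, had 1.13 (adjusted p = 0.0303), at 98.8, 93.0, 67.4 and 85.0 and at 43.4, 43.9, 69.2 and 81.7. The gate was lower than its neighbour class for Nhs in every library, and higher for Plcl1 in all libraries but DMSO replicate 1. None of the 5 genes passed with mixed cells left out, where 3 of them were no longer tested and 3 other genes passed. Acss1, Abca1 and Zbtb16 were not among the genes that passed, and side by side without mixed cells their changes were 1.74 and 1.61, -0.89 and -1.17, and 1.45 and 1.27 in the gate and the Ehd3-positive cells.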

How the data were processed

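Each of the 4 libraries was sequenced with a droplet-based single-cell 3′ kit. The authors deposited raw UMI counts per gene and barcode, made with Cell Ranger 8.0.1 against mm10 per the submitters' processing notes. Whether doublets or empty droplets were handled beyond this is not given in the sources used here, and the lowest deposited barcode held 500 UMIs. Barcodes were filtered and gated on raw counts as stated in the report, and counts were summed per library, since cells are not replicates. Sums were tested with edgeR 4.0.16 (TMM, filterByExpr, robust quasi-likelihood, Benjamini-Hochberg threshold 0.05), BPTES against DMSO, all 4 libraries, no covariate; interactions had the library as a block. Gate genes and the added tdTomato sequence entered no test. Shares were compared by exact permutation. Alternatives were DESeq2 1.42.0, RLE scaling, no low-count filter, a replicate block, leaving out each library, stricter gates, Scrublet doublet removal (scanpy 1.11.5) and thinning to 2000 UMIs. The members and gene lists were chosen with earlier results of these data known. Leaving out mixed cells, dropping the Ehd3 criterion, the crossed block and the comparison with Ehd3-positive cells were chosen after the data were seen.

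Named genes were up to 15 higher and 15 lower that passed, with an average log2 CPM not under 5 and groups apart, ranked by size of change, filled to 20 by smallest p, plus called members and the 4 most abundant others of each list, described here for part of the 24 gene lists. Replicate numbers come from sample titles only, and the libraries were not taken as pairs. Deviations of same-numbered libraries correlated at -0.204 over 5847 genes in all gated cells, which does not settle whether they are pairs. On simulated counts for the gate's 11493 genes, the test recovered 100 of 100 4-fold and 67 of 100 2-fold changes with 14 false calls. For a difference in effect from the Ehd3-positive Plvap cells (12760 genes) it recovered 99 and 21 of 100 with 5 false calls. The changed genes were drawn from those with more UMIs, and the spread between libraries was assumed. The smaller glomerular and Plvap-negative classes were not simulated. The depth of the sums, 1760039 to 4805365 UMIs, limits genes of few UMIs most. A few genes that the naming rule picks, or that belong to the lists, are not reported here.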

Additional observations from a re-analysis of the deposited data

Results flagged for a closer look

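These genes are listed because their BPTES effect in the gate differed from that in another endothelial class by an interaction test in edgeR (log2 difference of effects, Benjamini-Hochberg adjusted). All are given with no cause, which was not tested. Against glomerular cells, with mixed cells left out of both classes, the interaction was 5.24 for Igfbp3 (adjusted p = 0.00142), 4.49 for Mgp (adjusted p = 4.34e-04), -2.86 for Lrg1 (adjusted p = 0.00142), 2.21 for Atf3 (adjusted p = 0.0241) and 1.81 for Emp1 (adjusted p = 0.0237). The glomerular sums behind Mgp were 2, 0, 55 and 25 UMIs in the BPTES and then the DMSO libraries, so these values rest on few molecules.

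Against endothelial cells without Plvap and Ehd3, in all gated cells, it was -7.07 for Myh11 (adjusted p = 0.0122), 4.70 for Il33 (adjusted p = 0.0205), -3.91 for Angptl4 (adjusted p = 0.0122), 2.60 for Gsn (adjusted p = 0.0203) and -2.44 for Dach1 (adjusted p = 0.0122). With mixed cells left out none of the 6 genes that passed there did so (1 was not tested), Il33 having 1.81 (adjusted p = 0.993) and Angptl4 -2.30 (adjusted p = 0.460). Il33 had 2, 0, 31 and 168 UMIs in the Plvap-negative cells, and 2, 0, 5 and 8 without the mixed ones. Myh11 had 2, 1, 1 and 8 UMIs in the gate and 235, 74, 0 and 9 in the Plvap-negative cells. It entered the test through the BPTES libraries of the latter, where it is high, and the gate held too few UMIs to show an effect of its own. Without the mixed cells Edn1 had 1.91 (adjusted p = 0.0198), at 239 and 242 CPM under BPTES against 181 and 101 under DMSO in the gate, and 202 and 190 against 501 and 339 in the other class.

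Against Ehd3-positive Plvap cells it was -1.35 for Nhs (adjusted p = 0.0221) and 1.13 for Plcl1 (adjusted p = 0.0303) in all gated cells, and 1.64 for Slc14a1 (adjusted p = 0.0238) with mixed cells left out. None of the 5 genes called in all gated cells passed with mixed cells left out (3 were not tested), Nhs having -0.86 (adjusted p = 0.205). Slc14a1 was at 100, 103, 126 and 98.8 CPM in the gate and 13.7, 11.3, 39.6 and 47.2 in the Ehd3-positive cells.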

How the results depend on the processing

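The count of 38 called genes in all gated cells became 99 with DESeq2, 557 without the low-count filter, 24 with a replicate block, 471 with the block's numbers crossed, 89 with at least 4 Plvap UMIs, 4 with Lrp2 and Slc34a1 at 0, 1 with the Ehd3 criterion dropped (1705 at an unadjusted p under 0.05) and 0 to 332 when 1 library was left out. It stayed within 1.5 times under RLE scaling, a mitochondrial limit of 25%, doublet removal and without mixed cells. With mixed cells left out, 39 became 24 with DESeq2, 224 without the filter, 184 with a replicate block, 78 with it crossed, 81 without the Ehd3 criterion and 35 to 256 with 1 library left out. The labels do not say whether equal replicate numbers pair the libraries, and this was not settled. The glomerular interaction, 0, became 39 without the filter, 4 with the tubule genes at 0, 11 without mixed cells and 0 to 36 with 1 library left out. The interaction with Plvap-negative cells, 6, became 193 without the filter, 12 at the 25% mitochondrial limit, 14 without doublets, 18 with at least 4 Plvap UMIs, 1 without mixed cells and 8 to 140 with 1 library left out. That with Ehd3-positive cells, 5, became 43 without the filter, 3 without mixed cells and 1 to 135 with 1 library left out. The share among endothelial cells differed by -3.53 points after thinning and by -1.59 to -0.0706 with 1 library left out, and the share among Ptprc-negative barcodes by -2.26 to -0.402. Single genes that turned direction in all gated cells were Antxr1 (0.46) and Eda (0.05) without mixed cells, mt-Nd4l (0.06) and mt-Nd5 (0.05) at the 25% limit, Mitf when 1 library was left out (-0.31 to 0.67), with the tubule genes at 0 (-0.22) and without the Ehd3 criterion (-0.08), and Tln2 when 1 library was left out (-0.24 to 0.94) and without the Ehd3 criterion (-0.34). In the cells without mixed ones they were Antxr1 (-0.56 to 2.54) and Eda (-0.20 to 0.22) when 1 library was left out, and Eda without the Ehd3 criterion (-0.06). Of the other single-gene values in all gated cells, 602 kept direction and side of the threshold, 222 lost it and 108 gained it; with mixed cells left out these were 380, 71 and 14. These tallies pool genes that passed in the reported fit with genes that did not, and the latter count as kept where they again did not pass. They therefore do not give the share of calls that held. DESeq2 gave no adjusted p for 32 values. Where 1 library was left out, the lone library of its group was assumed to vary like the other group. The causes were not tested.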

Other observations

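Cells of the gate with and without Aqp1 were also fitted apart, as a description of cells split by a measured gene. In cells with at least 2 Aqp1 UMIs, 6 of 7339 genes passed in edgeR and 445 had an unadjusted p under 0.05, and in cells without Aqp1, 16 of 10953 and 876. Abca1 had -0.32 ± 0.26 (edgeR adjusted p = 0.960) in the former and -0.82 ± 0.14 (adjusted p = 0.0800) in the latter, and Acss1 had 1.24 ± 0.57 (adjusted p = 0.818) and 1.78 ± 0.23 (adjusted p = 0.0273). Whether these changes differ between the 2 groups of cells was not tested. Selp, the selectin stored in Weibel-Palade bodies, had 280 of its 525 UMIs of DMSO replicate 2 in the 33 Aqp1-bearing cells of that library, against 0, 2 and 8 UMIs in those cells of the other libraries.

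Spp1, or osteopontin, was at 206 and 12.1 scaled CPM under BPTES and 858 and 1150 under DMSO in all gated cells (-3.13 ± 1.49, adjusted p = 0.696). Without the mixed cells Spp1 was at 8.62 and 7.25 against 22.4 and 35.7 and fell by 1.87 ± 0.30 (adjusted p = 0.0125); without DMSO replicate 2 its adjusted p was 0.110. Nearly all Spp1 UMIs thus left with the mixed cells, 5501 becoming 135 in DMSO replicate 2.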
